A study of Mus musculus with 365 samples.

Results

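The Ikaros zinc finger family comprises 5 mouse genes, Ikzf1 (Ikaros), Ikzf2 (Helios), Ikzf3 (Aiolos), Ikzf4 (Eos) and Ikzf5 (Pegasus), which were taken by Entrez identifier (22778, 22779, 22780, 22781 and 67143) from a table of 23427 genes. All 5 were in the table, and 4 had reads. The table held read counts of 365 single cells from femoral bone marrow, 152 Ly6D+ and 213 TN (triple negative) cells, the 2 subpopulations of EPLM, progenitors with lymphoid and myeloid potential. Every cell, in both populations, came from C57BL/6 mice carrying the Flt3Ltg transgene, which supplies extra Flt3 ligand, so neither population shows the family in a marrow without it, and each label gives a pool of 2 mice. The sources used here give neither the age of the mice nor the promoter of the transgene.

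Ly6D+ cells were captured on chips 4, 5 and 6 (40, 60 and 52 cells) and TN cells on chips 1, 2 and 3 (75, 69 and 69 cells), so the chip and the population cannot be told apart. A chip held 35734620 to 58705646 gene reads in Ly6D+ and 50602877 to 61415823 in TN. The chip was the replicate. No label ties a chip to a mouse, so the p-values speak only of variation from chip to chip, which can be technical. The gene for the sorted protein, Ly6d, stood at 3046, 2860 and 2564 CPM (reads of a gene scaled to the chip's total gene reads after TMM adjustment, or, for a single cell, to that cell's own total) on the Ly6D+ chips, against 82.96, 167.7 and 282.7 CPM on the TN chips. TN chip 2 alone held cells with Xist detected (41 cells). On chip totals without TMM adjustment, the summed CPM of 10 T and innate lymphoid markers spanned 145.6 to 476 on the Ly6D+ chips and 944 to 1731 on the TN chips. On the same scale, that of 6 myeloid markers spanned 56.4 to 180 and 1585 to 3198, and that of 8 B-lineage markers 1627 to 2280 and 89.9 to 503.

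Proteins of this family bind DNA through zinc fingers near their amino end and pair with one another through fingers at their carboxyl end. They act in large part through chromatin complexes, chiefly NuRD, and are known as regulators of lymphocyte development. Ikaros is needed for lymphoid progenitors to form and acts from the stem cell onward; Helios is known from stem cells, regulatory T cells and innate lymphoid cells, Aiolos from B cells, T cells and innate lymphoid cells, Eos from regulatory T cells, and Pegasus from many tissues.

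What the first 4 members share can be read in the second DNA-binding finger. The finger is printed here because it shows both how alike the proteins are and how far reads of the members can still be told apart. Each sequence is the coding strand of the gene, 5′ to 3′, from GENCODE transcripts on GRCm38, and capitals mark bases that differ from Ikzf1.
Ikzf1, chr11:11754024-11754086, plus strand: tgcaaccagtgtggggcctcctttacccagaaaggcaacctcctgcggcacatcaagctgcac
Ikzf2, chr1:69570581-69570643, minus strand: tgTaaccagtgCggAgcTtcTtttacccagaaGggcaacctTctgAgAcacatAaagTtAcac
Ikzf3, chr11:98488940-98489002, minus strand: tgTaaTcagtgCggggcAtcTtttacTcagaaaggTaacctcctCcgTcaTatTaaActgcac
Ikzf4, chr10:128640229-128640291, minus strand: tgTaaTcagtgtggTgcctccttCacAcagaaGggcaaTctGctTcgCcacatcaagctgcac

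Each stretch lay within 1 coding exon and held 63 bases. Ikzf2 and Ikzf3 shared 51 of them with Ikzf1 and Ikzf4 shared 53, yet all 4 encode the same 21 of 21 residues. The finger of Ikzf5 that shared most bases with it was the last of the 4 found, with 31 of 63 bases and 5 of 21 residues. As the last finger it is not the counterpart of a second DNA-binding finger, so these values do not describe DNA binding by Ikzf5. The longest exact run shared by the transcripts of Ikzf1 and Ikzf3 was 26 bases (gatccctttgagtgtaacatgtgtgg, in the coding part of both), that of Ikzf1 and Ikzf2 was 17 bases and that of Ikzf2 and Ikzf3 was 20 bases. The sources used here do not say how the authors' counting treated reads that match more than 1 gene. The coordinates belong to GRCm38, whereas the counts were made on mm9.

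Ikzf1 was the family member that most cells held. Only 8 of 152 Ly6D+ cells and 32 of 213 TN cells lacked an Ikzf1 read, and the median among cells with reads was 572 CPM for Ly6D+ and 220 CPM for TN. Summed over each chip, Ikzf1 stood at 782, 620 and 679 CPM on Ly6D+ chips 4, 5 and 6, against 570, 518 and 241 CPM on TN chips 1, 2 and 3. All 3 Ly6D+ chips lay above all 3 TN chips, a separation that 15.4% of the 11797 genes tested showed in one direction or the other.

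Ly6D+ chips averaged 693 ± 82.1 CPM and TN chips 443 ± 176.7 CPM (SD, n = 3 chips each). The log2 fold change of Ly6D+ over TN was 0.65 ± 0.31 (SE), which did not pass edgeR's quasi-likelihood test over all genes (adjusted p = 0.650). The TN value rested in part on chip 3, and without it the log2 fold change was 0.34. By limma-trend on chip means of log2(CPM + 1) per cell, Ly6D+ minus TN was 1.55 (adjusted p = 0.0789), also short of the threshold. No cell dominated any sum: the highest cell of a chip gave between 6.96% and 11.1% of its Ikzf1 reads.

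To set shares of cells side by side, every cell was thinned to 200000 reads and detection meant at least 5 of them (25 CPM). Ikzf1 was detected in 92.5%, 78.3% and 92.3% of cells on the Ly6D+ chips, against 78.7%, 75.4% and 65.2% on the TN chips. The ranges overlapped, since Ly6D+ chip 5 lay just below TN chip 1. The mean share was 87.7 ± 8.12% in Ly6D+ and 73.1 ± 7.01% in TN (exact two-sided permutation p = 0.2 over 6 chips, where the smallest p possible is 0.1). Before thinning, cells with at least 1 read made up 95.1 ± 3.05% in Ly6D+ and 84.97 ± 3.64% in TN (exact permutation p = 0.1). That measure is not at equal depth, since the median cell held 894864 to 1000070 reads on the Ly6D+ chips and 750934 to 823684 on the TN chips.

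**Figure D1:**
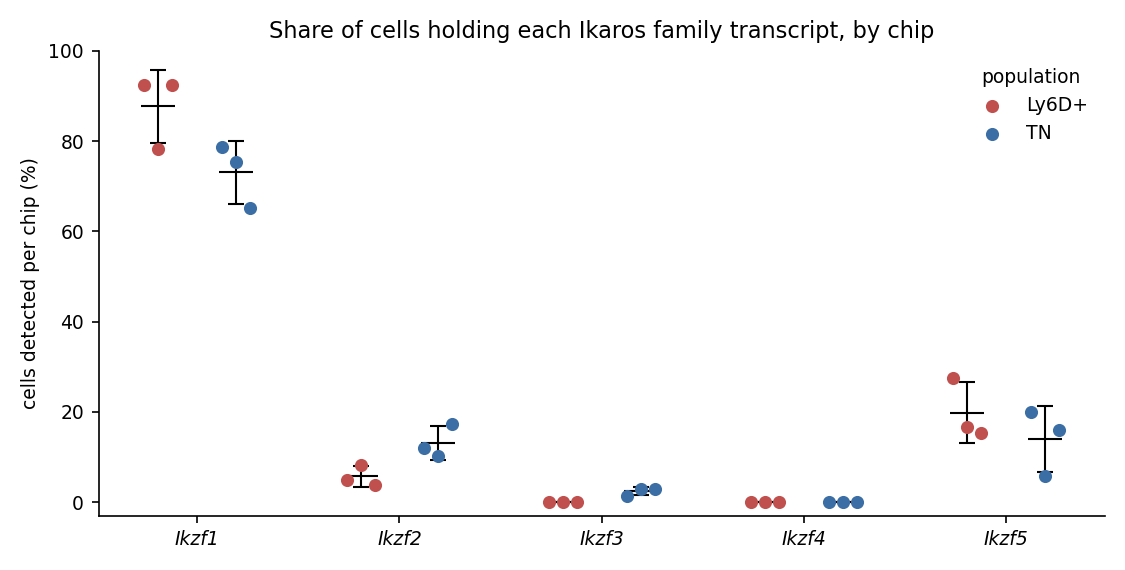
Share of cells (%) in which each family member was detected at 5 or more of 200000 thinned reads, with 1 point per chip and bars for the mean ± SD of 3 chips, Ly6D+ left of TN for each gene. Ikzf1 lies far above the rest in both populations, the Ikzf2 points of the populations do not overlap (3.85% to 8.33% in Ly6D+ and 10.1% to 17.4% in TN), and Ikzf4 is at 0 on all 6 chips.

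Within chips, the level of Ikzf1 was set against the number of genes a cell showed. Its Spearman correlation with the number of genes detected per cell averaged 0.04 ± 0.04 over the Ly6D+ chips and 0.29 ± 0.04 over the TN chips (SD, n = 3 chips; cells of a chip share a run). The chips held 2829, 2440 and 2786 detected genes per cell on average in Ly6D+ and 2608, 2510 and 2443 in TN, and Ly6D+ chip 5 and TN chip 3, lowest in genes, were also lowest in Ikzf1. The part of detection in the Ikzf1 difference was not tested.

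Among TN cells, Ikzf1 was found more often in those with Dntt, a description with no test over cells. It was detected in 88.9 ± 9.62% of the 64 TN cells with Dntt, which encodes the terminal transferase of lymphoid progenitors, and in 66.6 ± 6.75% of the TN cells without it (SD over 3 chips). On each TN chip the Dntt-positive cells were higher, with Ikzf1 in all of them on chip 1 and in 83.3% on chips 2 and 3, against 69.8%, 71.1% and 58.8% of the Dntt-negative cells on chips 1, 2 and 3. The reverse held for H2-Aa, an MHC class II gene of antigen-presenting cells: Ikzf1 was detected in 60.1 ± 14.3% of the 57 TN cells with H2-Aa and in 77.6 ± 5.25% of those without it. The share was 75.5 ± 12.9% in the TN cells with the neutrophil granule genes Mpo or Prtn3 and 71.1 ± 1.64% in the others, a gap smaller than its SD.

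Correlations within chips were taken for the same markers in both populations. Ikzf1 and Dntt correlated at 0.03 in Ly6D+ and 0.26 ± 0.08 in TN. For Ikzf1 and Flt3, the receptor of the transgenic ligand, the values were -0.02 in Ly6D+ and 0.28 ± 0.04 in TN. Both pairs lay near the correlation of Ikzf1 with the number of genes detected, 0.04 in Ly6D+ and 0.29 in TN. The part of detection in them was not tested. With Id2, an inhibitor of lymphoid transcription factors that innate lymphoid and dendritic cells express, the correlation was 0.18 ± 0.03 on the Ly6D+ chips and -0.24 ± 0.06 on the TN chips, with all 3 chips of each population on the same side of 0. For other early lymphoid genes, the TN values were -0.01 for Il7r, -0.03 for Rag1, 0.02 for Ebf1 and 0.08 for Blnk. They were -0.11 for Foxo1 and 0.15 ± 0.05 for Rag2. Rag1 and Ebf1 were detected in 1.41% and 3.75% of TN cells (mean of chips), against 30.1% for Dntt and 56.3% for Flt3. With so few positive cells, the values of Rag1 and Ebf1 make no contrast with Dntt or Flt3. These are descriptions over cells that share a chip, and the differences between populations were not tested. The marker genes named beside the members were picked from the lists after their values were seen.

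In Ly6D+ cells, Ikzf1 was detected in 91.99 ± 5.80% of the cells with Irf8, a factor of dendritic and B cells, and in 78.8 ± 13.6% of the 49 without it. It was detected in 82.7 ± 12.7% of the 63 Ly6D+ cells with Ebf1, the factor that commits progenitors to the B lineage, and in 90.9 ± 5.97% of the 89 without it. On chip 5 the Ebf1-positive share was 68.2%, against 84.2% in cells without Ebf1, while chips 4 and 6 differed less.

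Genes that varied like Ikzf1 from cell to cell were sought among 4598 genes detected in at least 20% of cells, by the mean within-chip Spearman correlation over 6 chips. The 5 highest with the same sign on every chip were Usp19 (0.25), Dtymk (0.24), Arpp21 (0.24), Mdh1 (0.24) and Nfx1 (0.23). These are weak correlations in sparse counts, and 429 genes had a positive sign on all 6 chips, against 9 with a negative one. The median over all 4598 genes was 0.06, and the 5 genes themselves correlated at 0.21 to 0.43 with the number of genes detected per cell.

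**Figure D2:**
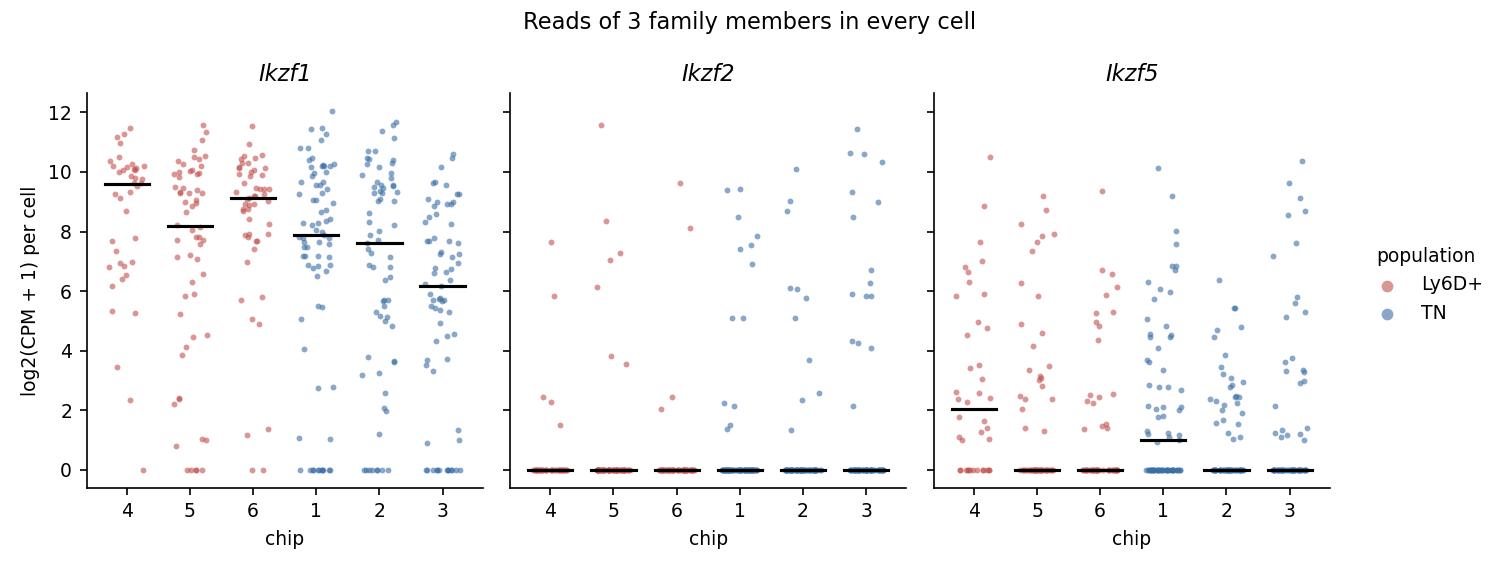
Level of Ikzf1, Ikzf2 and Ikzf5 in every cell as log2(CPM + 1), with 1 point per cell and a black line for the median of each chip, Ly6D+ chips 4 to 6 left of TN chips 1 to 3. The Ikzf1 median per cell is 768, 291 and 555 CPM on the Ly6D+ chips and 234.7, 193.6 and 71.3 CPM on the TN chips, while Ikzf2 is at 0 in most cells and high in a few.

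Ikzf2 was found in few cells. Reads were present in 16 Ly6D+ and 40 TN cells, of which 9 and 28 passed the detection limit after thinning. Its share of cells was 5.00%, 8.33% and 3.85% on Ly6D+ chips 4, 5 and 6, against 12%, 10.1% and 17.4% on TN chips 1, 2 and 3. Every TN chip lay above every Ly6D+ chip, as was so for 6.04% of all genes tested in that direction. The mean was 5.73 ± 2.33% in Ly6D+ and 13.2 ± 3.76% in TN (exact two-sided permutation p = 0.1, the smallest that 6 chips allow). Without the 41 Xist-positive cells of TN chip 2, the difference of Ly6D+ minus TN was -5.26 percentage points (exact permutation p = 0.4).

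Summed reads of Ikzf2 did not separate the populations. They came to 6.73, 83.8 and 14.2 CPM on the Ly6D+ chips and 30.5, 41.9 and 124.1 CPM on the TN chips. The log2 fold change was -0.91 with an SE of 0.95, and edgeR's adjusted p was 0.873. A single cell supplied 87.6% of the Ikzf2 reads of Ly6D+ chip 5, with 4160 reads or 3074 CPM. Without that cell the log2 fold change stood at -2.64 (adjusted p 0.241 by edgeR), without the whole chip it was -2.65, and without TN chip 3 it was -0.06. That cell held no Ikzf1 read, had 446 reads of Dntt and showed 5 of 6 plasmacytoid dendritic markers, against a mean of 2.47 in the other cells of its chip.

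In Ly6D+ the 9 cells with Ikzf2 held 0.47 ± 0.06 of 10 T and innate lymphoid markers, against 0.58 ± 0.14 in the other cells, and no myeloid marker. The TN cells with Ikzf2 held more T and innate lymphoid markers than the other TN cells, a description with no test over cells. They held 1.86 ± 0.64 of the 10 markers on average and the other TN cells 0.64 ± 0.13 (SD over 3 chips). Of the 28 TN cells with Ikzf2, 4 also held Ikzf3, with 4 to 6 of the markers each. These 4 cells are described again below among the Ikzf3 cells, so the descriptions are not separate. Gata3, a factor of T and innate lymphoid cells, was detected in 9 of 28 cells with Ikzf2 (32.1%) and in 15 of the others (8.11%). Tcf7, which acts early in both lineages, was detected in 28.6% and 8.65%, Zbtb16, the innate lymphocyte factor PLZF, in 17.9% and 2.16%, and Rora, needed for group 2 innate lymphoid cells, in 14.3% and 1.08%. Of the T cell receptor complex, Cd3e was detected in no TN cell and Cd3g in 1 of the 28 and in 0 of the others.

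The TN cells with Ikzf2 were not all of that kind, since 12 of the 28 held Mpo (42.9%, against 32.97% of the others) and the myeloid marker number was 1.57 ± 0.64, against 1.46 ± 0.29. Within TN chips, Ikzf2 correlated at 0.35 ± 0.10 with Gata3, 0.35 ± 0.16 with Tcf7, 0.39 ± 0.15 with Rora and -0.27 ± 0.03 with Irf8. Within Ly6D+ chips the values were 0.10 ± 0.21 for Gata3, 0.06 ± 0.11 for Tcf7 and 0.17 ± 0.19 for Irf8. The sign for Irf8 was thus not shared by the populations, and Rora had no reads in Ly6D+. Kit, the stem cell factor receptor, split Ikzf2 too, with detection in 19.9 ± 3.21% of 71 TN cells with Kit and 9.29 ± 7.18% of those without.

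Ikzf1 and Ikzf2 were not exclusive of one another. Of the 9 Ly6D+ cells with Ikzf2, 8 also held Ikzf1 (88.9%, against 86.7% of the other Ly6D+ cells). Of the 28 TN cells with Ikzf2, 21 held Ikzf1 (75%, against 72.97% of the other TN cells). Within chips their levels correlated at 0.08 ± 0.07 in Ly6D+ and at -0.15 ± 0.19 in TN. Of the 7 TN cells with Ikzf2 and no detected Ikzf1, 3 also held Ikzf3.

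**Figure D3:**
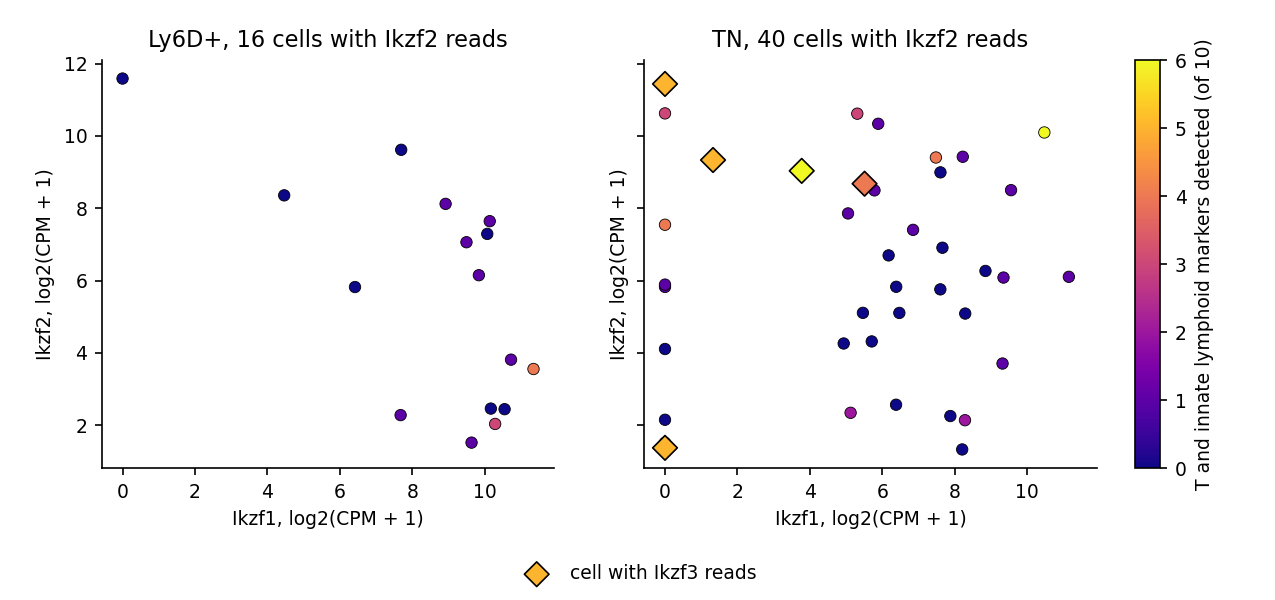
Ikzf2 against Ikzf1 as log2(CPM + 1) in the cells with at least 1 Ikzf2 read, 16 Ly6D+ cells on the left and 40 TN cells on the right, coloured by the number of 10 T and innate lymphoid markers detected, with diamonds for cells with Ikzf3 reads. All 5 diamonds are TN cells at or below 44.6 CPM of Ikzf1, and the cells with 4 or more markers are mostly TN cells.

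Ikzf3 was absent from the reads of all Ly6D+ cells and present in 5 TN cells. None of 152 Ly6D+ cells held a read, which allows a share of up to 1.97% by a limit of 3 counts and up to 2.40% by the exact 95% binomial interval. The 5 of 213 TN cells made up 2.35% (exact 95% interval 0.766% to 5.39%), so the intervals of the populations overlap. Both cover counting error only. The chip sums were 0, 0 and 0 CPM in Ly6D+ and 20.5, 29.3 and 28.2 CPM in TN. The chips did not overlap, as was so for 15.4% of all genes tested in one direction or the other. The gene entered edgeR's test only through its TN reads, so the adjusted p of 0.0449 (a direction in which 13 of 11797 genes, 0.11%, were called) is given as a description and not as evidence of a difference, and no fitted fold is given.

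The value rested on few cells and few chips. The 5 cells held 4338 reads in all, with levels of 2117 CPM in the cell on chip 1, 1751 and 134.8 CPM in those on chip 2 and 1707 and 358.6 CPM in those on chip 3. Leaving out any 1 chip gave an adjusted p of 0.0564 to 0.193, and limma-trend on means of log2(CPM + 1) gave 0.177. Without the cells under 1500 detected genes, or without the Xist-positive cells, the gene no longer passed the filter on low counts. The exact permutation p for the share of cells, 0 ± 0% in Ly6D+ and 2.38 ± 0.904% in TN, was 0.1.

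The 5 cells with Ikzf3 resembled one another in other genes. They held 4 to 6 of 10 T and innate lymphoid markers, whereas the other cells of their chips averaged 0.68 to 0.80, and none of the 8 B-lineage or 6 myeloid markers was detected in any of them. In the order above, they held 2, 0, 1, 2 and 0 of 6 conventional dendritic markers, against averages of 1.60 to 1.79 in the other cells of their chips. Of 6 plasmacytoid dendritic markers they held 0, 1, 3, 0 and 3, against averages of 1.35 to 1.97. Reads of Rora were found in all 5, with 12 in the smaller Ikzf3 cell of chip 2 and 74 or more in the rest. Gata3 had 25 to 3306 reads in each of the 5 and Id2 809 to 5835. In the smaller Ikzf3 cell of chip 2, the 12 Rora and 25 Gata3 reads did not reach the detection limit after thinning. Rora was detected in 6 of the 365 cells, all TN, and 4 of these held Ikzf3.

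They were not uniform, though. Zbtb16 had 2021, 989 and 562 reads in the larger Ikzf3 cell of chip 2 and both cells of chip 3 and none in the other 2, and Il7r, the interleukin-7 receptor, had 5556, 788, 932 and 1335 reads in 4 cells and 0 in the smaller Ikzf3 cell of chip 2. That cell alone held reads of Tbx21 and Klrb1c, genes of natural killer and type 1 innate lymphoid cells. Cd3e, Dntt, Ebf1 and Cd79a had 0 reads in all 5, while Cd3g had 30 reads in the larger Ikzf3 cell of chip 3.

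Ikzf3 went with Ikzf2 rather than with Ikzf1. Ikzf2 was detected in 4 of the 5 cells (80%) and in 11.5% of the other TN cells, with 1, 453, 412, 427 and 1708 reads in the order above. Ikzf1 was detected in 1 of the 5 (20%), against 74.5% of the other TN cells, with 0, 11, 45, 1 and 0 reads. These 5 cells supplied 3001 of the 10300 Ikzf2 reads of TN (29.1%), and without them the Ikzf2 log2 fold change was -0.42. Their gene reads, 616260 to 1008536, lay within the range of the other cells, and they held 1466 to 2264 detected genes, below the mean of their chips.

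**Figure D4:**
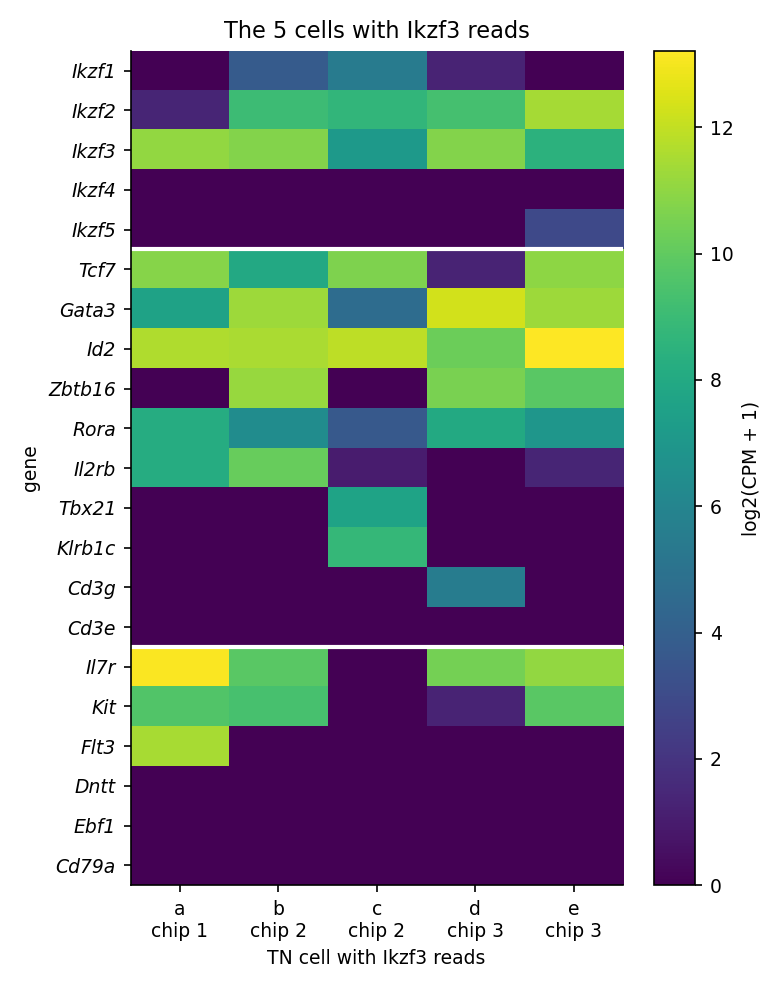
Levels as log2(CPM + 1) of the family (top), 10 T and innate lymphoid markers (middle) and 6 receptors and B-lineage genes (bottom) in the 5 TN cells with Ikzf3 reads, 1 column per cell. Id2, Gata3 and Rora have reads in all 5 columns, Ikzf2 is high in 4, and Ikzf1, Dntt, Ebf1 and Cd79a are low or at 0.

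The same cells can be counted by their markers, with a limit of 3 or more of the 10 T and innate lymphoid markers that was set after the values were seen, so the counts are no second line of evidence. Of the 3 Ly6D+ cells past it, 0 held Ikzf2 or Ikzf3 and 3 held Ikzf1. Of the 16 TN cells past it, 9 held Ikzf2 (56.3%), 5 held Ikzf3 and 8 held Ikzf1 (50%). Of the other TN cells, 9.64% held Ikzf2, 0 held Ikzf3 and 75.1% held Ikzf1. Ikzf2 was detected in 2 of 7, 3 of 4 and 4 of 5 marked cells on TN chips 1, 2 and 3. These shares were 28.6%, 75% and 80% of very few cells, against 10.3%, 6.15% and 12.5% of the rest. Of the 9 marked TN cells with Ikzf2, 4 were Ikzf3 cells described above. Among cells below the limit, Ikzf2 was detected in 5%, 8.47% and 4% on the Ly6D+ chips and in those 10.3%, 6.15% and 12.5% on the TN chips. TN chips 1 and 3 lay above all Ly6D+ chips there, and TN chip 2 lay below Ly6D+ chip 5.

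Ikzf4 had 0 reads in 365 cells, which allows a share of cells with a read of up to 0.822% by a limit of 3 counts and up to 1.01% by the exact 95% interval, and was not tested. At this depth its absence from the cells is not shown.

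Ikzf5 was spread thinly over many cells. It had reads in 70 Ly6D+ and 93 TN cells, but the median among these cells was 6 reads (9.09 CPM), and it was detected after thinning in 59 cells. The chip sums were 88.98, 42.5 and 21.8 CPM in Ly6D+ and 37.03, 4.58 and 71.9 CPM in TN, which overlap. The log2 fold change stood at 0.43 with an SE of 0.90 and an adjusted p of 0.950 by edgeR, and it turned to -0.09 without TN chip 2 and to -0.23 without Ly6D+ chip 4. The share of cells was 27.5%, 16.7% and 15.4% on the Ly6D+ chips and 20%, 5.80% and 15.9% on the TN chips, with means of 19.9 ± 6.66% and 13.9 ± 7.32% (exact permutation p = 0.5).

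Within the populations Ikzf5 was seen more in some marker classes than in others, with no test over cells. It was detected in 25.7 ± 11.4% of Ly6D+ cells with Irf8 and 8.30 ± 3.76% of those without, and in 3.25 ± 2.82% of TN cells with H2-Aa and 17.5 ± 10.0% of those without. Its correlation with the number of genes detected was 0.24 in Ly6D+ and 0.22 in TN. In the RefSeq annotation of GRCm38, Ikzf5 overlaps Pstk, a gene of selenocysteine synthesis. The libraries do not mark strand, so reads of the overlap could count for either gene. Of 71 cells with Pstk reads 31 also had Ikzf5 reads, and the within-chip correlation of the 2 genes averaged 0.01 (range -0.13 to 0.11).

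Divided by the length that the table gives, the members could be ordered by level. Ikzf1 stood at 134.3 ± 15.9 CPM per kilobase in Ly6D+ and 85.7 ± 34.2 in TN. Ikzf5 followed with 11.6 ± 7.84 in Ly6D+ and 8.62 ± 7.67 in TN, then Ikzf2 with 3.71 ± 4.51 and 6.96 ± 5.42, and Ikzf3 with 0 and 6.35 ± 1.18. In TN the levels of Ikzf5, Ikzf2 and Ikzf3 lay within their SDs of one another. On Ly6D+ chips 4, 5 and 6, Ikzf5 stood at 20.3, 9.69 and 4.96 CPM per kilobase, above Ikzf2 at 0.714, 8.89 and 1.51. Only Ikzf1 stood clear of its neighbour in both populations.

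Of all family reads per length, Ikzf1 supplied 87.8%, 86.6% and 95.3% on the Ly6D+ chips and 86.9%, 88.8% and 56.1% on the TN chips. TN chip 3 stood apart, where Ikzf1 was lowest and Ikzf2 and Ikzf5 highest among the TN chips. The means were 89.9 ± 4.71% and 77.3 ± 18.3%, a difference of 12.6 percentage points that fell to 2.08 without TN chip 3. A Ly6D+ cell held 1.13 ± 0.11 of the 5 members on average and a TN cell 1.03 ± 0.09. No member was detected in 15 Ly6D+ and 42 TN cells, 2 members were detected in 29 Ly6D+ and 42 TN cells and 3 members in 2 Ly6D+ and 3 TN cells, and the rest held 1.

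Genes of the complexes through which Ikaros proteins act did not pass the test. Of 18 corepressor genes (NuRD, Sin3 and CtBP subunits and Smarca4), 0 passed edgeR's test in either direction against 0.203% of all genes, with 1 higher at an unadjusted p under 0.05 (4.27% of all genes) and a median log2 fold change of 0.29, against 0.01 over all genes. Mta3, a NuRD subunit, stood at 476, 365 and 483 CPM on the Ly6D+ chips and 208.9, 240 and 117.5 CPM on the TN chips. The chips did not overlap, as was so for 15.4% of all genes tested in one direction or the other. The log2 fold change of Mta3 came to 1.23 ± 0.30 (SE) with an adjusted p of 0.217 by edgeR. DESeq2 called it higher in Ly6D+, as it did 2.33% of genes, and so did limma-trend (1.87% of genes). Sin3b, a Sin3 scaffold, had 0.71 ± 0.36, and Chd4, the NuRD remodelling enzyme, 0.40 ± 0.22, neither past the test.

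Cereblon is the ligase receptor through which thalidomide analogues lead to the breakdown of human Ikaros and Aiolos. Of the 5 genes of that ligase (Crbn, Ddb1, Cul4a, Cul4b and Rbx1), 0 passed edgeR's test, against 0.203% of all genes. DESeq2 and limma-trend called 0 of them, and 0 had an unadjusted p under 0.05 by edgeR. The median log2 fold change was -0.05, against 0.01 over all genes. The smallest unadjusted p values belonged to Cul4a with 0.67 ± 0.34, Ddb1 with 0.43 ± 0.35 and Cul4b with -0.36 ± 0.33 (log2 fold change ± SE), all subunits of the ligase core.

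Genes that Ikaros is held to activate leaned higher in Ly6D+. This list and the next were drawn up from general knowledge of the field, from no source list and with earlier results of these data known, so their counts are no independent evidence. Of 12 such genes, 2 rose past edgeR's test and 0 fell, where 0.0932% of all genes rose. At an unadjusted p under 0.05 by edgeR, 10 were higher in Ly6D+, as were 4.27% of all genes. The median log2 fold change was 2.11, against 0.01 over all genes. Rag2, which with Rag1 cuts antigen receptor genes for joining, stood at 149.6, 258 and 222 CPM on the Ly6D+ chips and 40.8, 26.1 and 37.9 CPM on the TN chips, a log2 fold change of 2.59 ± 0.34. Blnk, the adaptor of the pre-B cell receptor, stood at 559, 461 and 354 CPM in Ly6D+ and 77.8, 97.8 and 42.5 CPM in TN, a log2 fold change of 2.66 ± 0.35.

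Both had an edgeR adjusted p of 0.0396, and neither was called without any 1 chip or without the Xist-positive cells. Cd79b, a subunit of the B cell receptor, had a log2 fold change of 2.12 ± 0.40, Foxo1, a factor upstream of the Rag genes, 2.11 ± 0.41, and Rag1, the partner of Rag2, 5.51 ± 1.31, none past the test (adjusted p 0.134, 0.143 and 0.206). DESeq2 called 10 of the 12 higher in Ly6D+ (2.33% of all genes) and limma-trend 8 (1.87% of all genes).

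Genes that Ikaros is held to restrain did not lean the other way. Of 8 listed, 6 were tested and 0 passed edgeR's test, against 0.203% of all genes. At an unadjusted p under 0.05 by edgeR, 3 were higher, as were 4.27% of all genes, and 0 lower. The median log2 fold change was 1.41, against 0.01 over all genes. Myc, a driver of growth, stood at 306, 351 and 414 CPM on the Ly6D+ chips and 150.2, 206.1 and 151.8 CPM on the TN chips (log2 fold change 1.08 ± 0.24, adjusted p = 0.186). Hes1, a Notch target, had 1.75 ± 0.75 and Ccnd3, a cyclin of pre-B cell division, 0.71 ± 0.26. DESeq2 called 3 of this list (2.33% of all genes) and limma-trend 4 (1.87% of all genes), all higher in Ly6D+. Of the DESeq2 calls, Notch3 was not among the 6 genes that edgeR tested, and it stood at 0, 7.02 and 4.92 CPM on the Ly6D+ chips and at 0 on all TN chips.

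These lists overlap the B lineage. Ebf1 and Cd79b of the first and Igll1 and Vpreb1 of the second are also among the B-lineage markers, whose summed level did not overlap between the populations. The part of B-lineage cells in the counts of both lists was not tested. Within chips, Ikzf1 and Rag2 correlated at -0.07 ± 0.07 in Ly6D+ and 0.15 ± 0.05 in TN, and Ikzf1 and Blnk at -0.11 ± 0.11 in Ly6D+ and 0.08 ± 0.06 in TN. Both were positive on all 3 TN chips, and these are weak correlations in sparse counts.

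**Figure D5:**
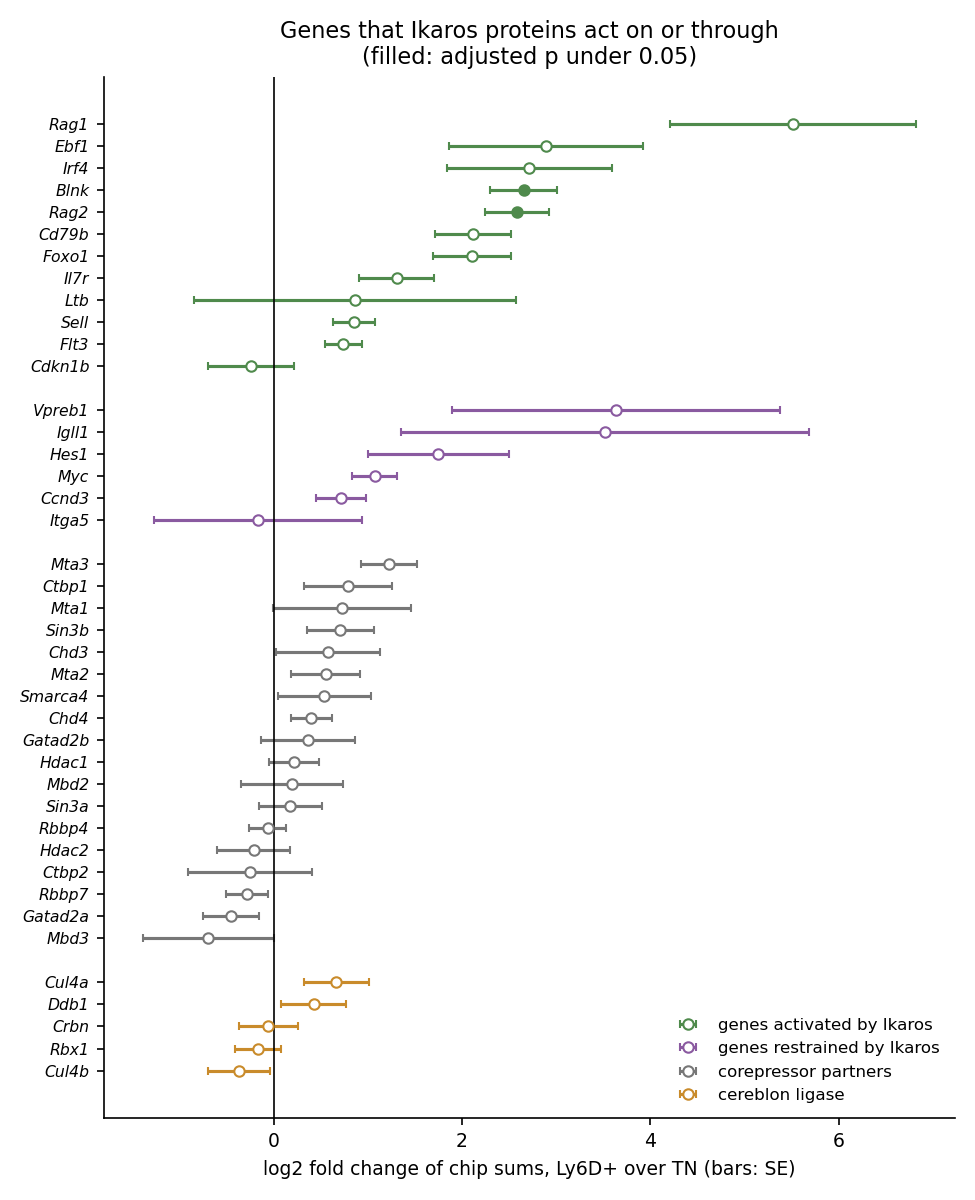
Log2 fold change of chip sums, Ly6D+ over TN, with SE bars (edgeR, 3 chips each) for the tested genes of 4 lists, with filled points for an adjusted p under 0.05. The 2 filled points are Rag2 and Blnk, most genes of both Ikaros target lists lie right of 0, and the corepressor and cereblon ligase genes lie on both sides of it.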

How the data were processed

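Single cells were captured on Fluidigm C1 chips, and full-length cDNA was sequenced without molecular identifiers or strand marks, per the labels' protocols. The authors deposited raw read counts per gene and cell, with a column of gene length in bases. The submitters' processing notes name mm9 and R 3.2.0. The sources used here name no aligner, counter, annotation or doublet step, and no doublet caller was run. Of 178 captured Ly6D+ and 232 captured TN cells, those that failed the study's quality limits are not in the table.

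Symbols were matched by Entrez identifier to a RefSeq gene table of GRCm38.p6 (23334 matched, 93 not). That table served only for names and for genes that overlap the members. Counts were summed per chip and tested over all genes with edgeR 4.0.16 (quasi-likelihood, TMM, filterByExpr, Benjamini-Hochberg adjusted p under 0.05). Chip CPM values of tested genes use TMM-scaled totals. Summed CPM of marker lists and chip CPM of untested genes use totals without TMM scaling. SE is the absolute log2 fold change over the square root of F. Shares of cells used thinning to 200000 reads (lowest cell 267852) and exact permutation over chips. Alternatives were RLE scaling, DESeq2 1.42.0, limma-trend, no filter, other detection limits, and leaving out chips or cells. The steps were tested on simulated data.

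The members and lists were chosen with earlier results of these data known. Named list genes were those called and up to 3 others with the smallest p, and cells of a member with reads in 10 cells or fewer were each described. Finger sequences came from GENCODE vM21 coding exons.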

Additional observations from a re-analysis of the deposited data

How the results depend on the processing

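Over 13 results, 19 alternative counts of calls moved by more than the limit, 7 values lost a call and 2 changed direction. The rest were counts that stayed within the limit, or values that kept direction and side of the threshold. For results with an exact permutation p, the smallest p of 0.1 fixed that side in advance, so only their direction could change. Over all genes, edgeR called 24, DESeq2 561, limma-trend 326, edgeR without the Xist-positive cells 7, and edgeR without 1 chip 2 to 23. Calls among corepressor and ligase genes numbered 0, and 1 by DESeq2 and 1 by limma-trend (Mta3). Calls among the Ikaros target lists numbered 2, against 13 by DESeq2, 12 by limma-trend, 0 without the Xist-positive cells and 0 to 1 without 1 chip. Ikzf3, tested only through its TN reads, had an adjusted p of 0.0449, 0.177 by limma-trend and 0.0564 to 0.193 without 1 chip, none of which is evidence of a difference. Ikzf5 changed direction without TN chip 2 (-0.09) and Ly6D+ chip 4 (-0.23), over a range of -0.23 to 1.27. The cause was not tested. Without 1 chip the log2 fold change of Ikzf1 ranged from 0.34 to 0.87 and that of Ikzf2 from -2.65 to -0.06. By limma-trend Ikzf1 differed by 1.55 on the mean log2(CPM + 1) scale (adjusted p = 0.0789). Leaving out the highest Ikzf2 cell or the Ikzf3 cells was chosen after seeing the data. No paired analysis was possible because the chip numbers are not shared between the populations. With 3 chips each, no share of cells can reach an exact p below 0.1, and reads without molecular identifiers are not independent molecules.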
